A study of Mus musculus with 6 samples.

Results

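Matrix glycoproteins and leucine-rich proteoglycans of the interstitium, Fn1, Tnc, Postn, Sparc, Vcan, Dcn, Bgn, Lum, Ogn and Fbn1, were followed by mRNA in the mouse kidney. They were taken by their symbols in the gene annotation and make up 10 of the 55450 genes in the table. Kidney RNA had been sequenced for 6 mice, 3 of them from day 0 and 3 from day 21 of a model of hyperuricemia-related chronic kidney disease (CKD). All were wild-type C57BL/6J males bought at 7 weeks of age and kept for 1 week before the experiment. Day 0 served as control, with the label 20% PEG, and the day-21 mice had received daily gavage of adenine (0.16 g/kg) with potassium oxonate (2.4 g/kg), an inhibitor of the urate-degrading enzyme uricase. Each library is from kidney tissue of a separate mouse, and the effects of the agents, the gavage and the time cannot be told apart. The comparison asks how the transcripts of these matrix genes differ between the control and the injured kidney.

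These genes encode the non-collagen part of the connective tissue. Fibronectin, tenascin-C, periostin and SPARC are secreted glycoproteins that cells lay down around collagen and bind, in large part through integrins, and they are widely used as indicators of wound repair and fibrosis. Versican is a large chondroitin sulfate proteoglycan that binds hyaluronan. Decorin, biglycan, lumican and osteoglycin are small leucine-rich proteoglycans, whose curved protein cores bind collagen and shape its fibrils, and fibrillin-1 polymerises into the microfibrils that carry elastin and latent TGF-β. In the kidney, fibroblasts and pericytes are regarded as main sources of most of them, with contributions from mesangial, smooth muscle and injured epithelial cells.

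The upstream sequences of 4 of the genes are shown because they pair 2 genes that were higher on day 21 (Postn and Bgn) with 2 that did not pass the test (Vcan and Ogn). Each is the 250 bases before an annotated transcript start in the RefSeq promoter sequences of GRCm38.p6, written 5′ to 3′ on the gene's own strand, and for Postn the window nearest to the gene start of the GENCODE annotation was taken from a pair. Capitals mark every match to the TATA box (TATAAA), the GC box (GGGCGG), the CCAAT box (these 5 letters), the TEAD motif (GGAATG) and the AP-1 motif (TGANTCA), searched on both strands.
Postn (chr3:54360857-54361106, plus strand): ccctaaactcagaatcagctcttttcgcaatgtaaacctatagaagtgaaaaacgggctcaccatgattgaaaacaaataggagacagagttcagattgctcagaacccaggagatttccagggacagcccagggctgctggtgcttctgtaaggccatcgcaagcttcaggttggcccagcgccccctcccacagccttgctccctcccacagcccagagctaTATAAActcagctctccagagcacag
Bgn (chrX:73483351-73483600, plus strand): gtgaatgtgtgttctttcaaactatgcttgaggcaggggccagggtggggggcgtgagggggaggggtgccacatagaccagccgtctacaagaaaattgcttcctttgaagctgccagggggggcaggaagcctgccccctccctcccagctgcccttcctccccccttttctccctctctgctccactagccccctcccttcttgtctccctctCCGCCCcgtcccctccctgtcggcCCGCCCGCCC
Vcan (chr13:89742513-89742762, minus strand): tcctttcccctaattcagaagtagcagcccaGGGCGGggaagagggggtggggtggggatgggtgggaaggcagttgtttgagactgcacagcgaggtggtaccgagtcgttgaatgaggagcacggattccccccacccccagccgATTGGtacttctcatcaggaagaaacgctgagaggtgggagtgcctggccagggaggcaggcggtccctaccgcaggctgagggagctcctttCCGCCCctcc
Ogn (chr13:49607765-49608014, plus strand): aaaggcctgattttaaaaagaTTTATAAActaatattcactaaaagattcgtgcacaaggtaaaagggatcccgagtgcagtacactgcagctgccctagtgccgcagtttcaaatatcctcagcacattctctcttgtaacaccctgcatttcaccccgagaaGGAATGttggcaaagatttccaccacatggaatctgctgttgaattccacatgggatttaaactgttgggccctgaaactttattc

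RefSeq sequences were matched for 7 of the 10 genes (all but Fn1, Dcn and Lum) in 9 windows. The Postn window held a TATA box 26 bases before the start and no other motif. That of Bgn was rich in G and C (64.4%, against a median of 52.4% over all 32851 windows) and held 3 GC boxes, at 34, 10 and 6 bases before the start, of which the last 2 overlap. Vcan also had a G+C-rich window (62.4%) with GC boxes at 219 and 10 bases and a CCAAT match, on the other strand, at 103 bases. The Ogn window was poorer in G and C (42.0%), with overlapping TATA box matches on opposite strands, at 229 and 227 bases, and a TEAD motif at 86 bases. Among all windows, 12.4% held a TATA box, 32.7% a GC box, 33.8% CCAAT, 12.6% the TEAD motif and 6.75% the AP-1 motif. No window of the 7 genes held the AP-1 letters, and that of Sparc held none of the 5 motifs. GC boxes lay before genes that were called (Bgn, Tnc and Fbn1) and before Vcan, which was not, and TATA box letters before Postn and Tnc and also before Ogn. CCAAT was found only before Vcan and the TEAD motif only before Ogn, so each rests on 1 window.

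On day 21, 8 of the 10 genes were higher than on day 0, none was lower, and Vcan and Ogn did not pass the test. A gene was called when the adjusted p of edgeR's quasi-likelihood test was under 0.05 and the fold over 1.5. Of all 16592 genes tested, 19.6% were called higher and 15.5% lower by this rule. The median log2 fold change was 2.04 over the 10 genes and 0.03 over all genes tested. In 7 of the 10, every day-21 mouse lay above every day-0 mouse, as was so for 30.7% of all genes tested. The 3 genes whose groups overlapped were Vcan, Ogn and Dcn. For a single gene the smallest p that an exact two-sided permutation test can give with 3 mice a group is 0.1, the value of those 7 genes. Levels are given below as CPM, a gene's counts relative to the size of its library, with sizes adjusted by the TMM method, which sets most genes level between libraries. Library totals ran from 10963849 to 14333311 counts, so that 3 counts, taken as the floor of detection, stood for 0.179 to 0.309 CPM (counting error only).

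**Figure D1:**
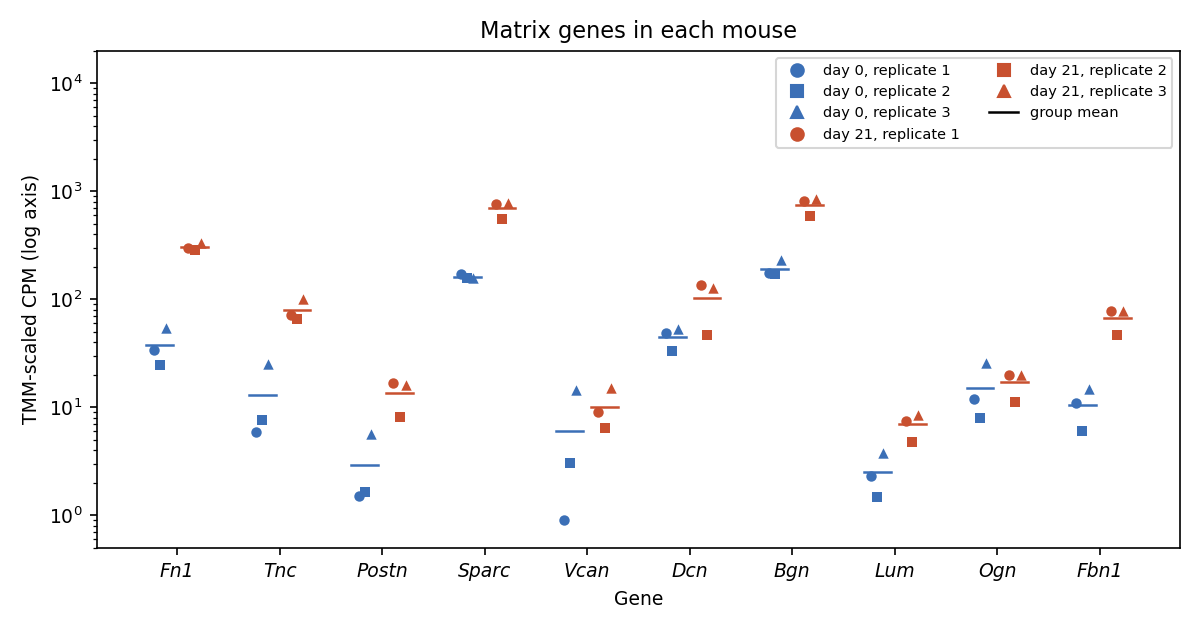
Level of each matrix gene in each of the 6 mice, in TMM-scaled CPM on a log axis, with blue for day 0, red for day 21, a marker shape for each replicate and a bar for the group mean. The day-21 points stand above all day-0 points for 7 genes, while those of Vcan, Dcn and Ogn overlap with day 0, and the day-0 triangle (replicate 3) is the highest of its group for all genes but Sparc.

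Fibronectin had the largest estimate of the 10 with all mice in. Without day-0 replicate 3 it was 3.37 on the log2 scale, below the 3.52 of Tnc, and the intervals of the 2 genes overlap. Fn1 (ENSMUSG00000026193.15, chromosome 1 from 71585520 to 71653200 of GRCm38, minus strand) encodes the glycoprotein that links cells to collagen and on which other matrix proteins assemble. It was at 33.7, 24.6 and 54.3 CPM on day 0 (replicates 1 to 3) and at 299.1, 284.4 and 329.0 CPM on day 21. The lowest day-21 mouse stood far above the highest day-0 mouse, and the day-21 mice lay closer together (coefficient of variation 7.47%) than the day-0 mice (40.6%). The mean rose from 37.5 ± 15.2 to 304.1 ± 22.7 CPM (SD, n = 3 each), 8.13-fold (log2 fold change 3.02, standard error 0.25, 95% interval 2.48 to 3.57, edgeR adjusted p = 8.9e-06). Only 2.44% of all genes tested had a larger one. In bulk tissue, more cells that express a gene and more RNA per cell cannot be told apart, here and for every gene that follows.

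Tenascin-C, a branched glycoprotein that is laid down during development and wound repair and modulates cell adhesion, was at 5.92, 7.67 and 25.2 CPM on day 0 and at 72.0, 65.8 and 100.5 CPM on day 21. The groups did not overlap, although day-0 replicate 3 was well above the other day-0 mice. The log2 fold change of Tnc (ENSMUSG00000028364.15, chromosome 4 from 63959785 to 64047015, minus strand) was 2.63 (standard error 0.43, 95% interval 1.67 to 3.60, edgeR adjusted p = 0.00071). Without day-0 replicate 3 it was 3.52.

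Periostin, a matricellular protein that promotes collagen cross-linking, was one of the least abundant of the 10. Postn (ENSMUSG00000027750.16, chromosome 3 from 54361109 to 54391037, plus strand) had 15, 20 and 55 counts on day 0 (1.5, 1.65 and 5.67 CPM). On day 21 it had 237, 135 and 261 counts (16.8, 8.05 and 16.0 CPM). All day-21 mice were above all day-0 mice, the closest being day-21 replicate 2 and day-0 replicate 3. The log2 fold change was 2.23 (standard error 0.47, 95% interval 1.19 to 3.27, edgeR adjusted p = 0.0031), and 3.07 without day-0 replicate 3.

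SPARC, which binds collagen and calcium and assists procollagen processing, was one of the 2 most abundant transcripts of the 10 and the steadiest on day 0. Sparc (ENSMUSG00000018593.13, chromosome 11 from 55394500 to 55423183, minus strand) was at 171.1, 158.7 and 156.2 CPM on day 0, a coefficient of variation of 4.90%, and at 769.0, 557.8 and 781.1 CPM on day 21. It was the only one of the 10 for which day-0 replicate 3 was the lowest of its group. It rose from 162.0 ± 7.93 to 702.7 ± 125.6 CPM (SD, n = 3 each), 4.34-fold (log2 fold change 2.12, standard error 0.15, 95% interval 1.79 to 2.44, edgeR adjusted p = 3.5e-06). The interval was the narrowest of the 10.

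Versican was the most variable of the 10 on day 0. Vcan (ENSMUSG00000021614.16, chromosome 13 from 89655312 to 89742509, minus strand) had 9, 37 and 139 counts at day 0, against 127, 107 and 247 at day 21. These stood for 0.902, 3.05 and 14.3 CPM on day 0 and for 8.98, 6.38 and 15.1 CPM on day 21. Day-0 replicate 3 was thus above 2 of the 3 day-21 mice, and the coefficient of variation on day 0 was 118%. For Vcan edgeR gave a log2 fold change of 0.76, with a 95% interval from -0.76 to 2.28 (edgeR adjusted p = 0.40, exact permutation p = 0.3). Without day-0 replicate 3 it was 2.29 (edgeR adjusted p = 0.005), and without a filter on low counts 0.77 (adjusted p = 0.0058). The fit without the filter left the estimate much the same but gave a standard error of 0.24, against 0.68 with it. It also gave Fn1 an edgeR adjusted p of 1.7e-88 with 3 mice a group, so its p for Vcan carries little weight. These data therefore neither place Vcan with the genes that rose nor bound its change below that of Lum or Bgn.

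Of the 4 small leucine-rich proteoglycans, 3 were called higher and Ogn was not. Biglycan, of class I, carries a pair of glycosaminoglycan chains and can act as a danger signal through Toll-like receptors. Bgn (ENSMUSG00000031375.17, chromosome X from 73483602 to 73495933, plus strand) was at 173.9, 172.3 and 229.2 CPM on day 0 and at 818.4, 587.1 and 843.0 CPM on day 21. The lowest day-21 mouse was far above the highest day-0 mouse. The rise from 191.8 ± 32.4 to 749.5 ± 141.2 CPM (SD, n = 3 each) gave a log2 fold change of 1.97 (standard error 0.17, 95% interval 1.58 to 2.35, edgeR adjusted p = 1.3e-05).

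Decorin, the closest relative of biglycan, carries 1 such chain and binds collagen fibrils and TGF-β. Dcn (ENSMUSG00000019929.16, chromosome 10 from 97479609 to 97518143, plus strand) was at 48.6, 33.1 and 52.8 CPM on day 0 and at 135.5, 46.7 and 127.3 CPM on day 21. Day-21 replicate 2 lay within the day-0 range, and the other two day-21 mice were well above it. Dcn was called higher, at a log2 fold change of 1.2 (standard error 0.34, 95% interval 0.45 to 1.96, edgeR adjusted p = 0.015, exact permutation p = 0.3). The call was lost without day-0 replicate 2 (1.02, adjusted p = 0.069), day-21 replicate 1 (0.96, 0.058) or day-21 replicate 3 (1.02, 0.054). Without day-21 replicate 2 the value was 1.55 (adjusted p = 0.00021).

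Lumican, a keratan sulfate proteoglycan of class II, was low on both days. Lum (ENSMUSG00000036446.5, chromosome 10 from 97565128 to 97572703, plus strand) had 23, 18 and 37 counts on day 0 (2.31, 1.48 and 3.81 CPM) and 106, 80 and 140 on day 21 (7.49, 4.77 and 8.58 CPM). The groups did not overlap, and the log2 fold change was 1.47 (standard error 0.36, 95% interval 0.66 to 2.28, edgeR adjusted p = 0.0079).

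Osteoglycin, of class III and also called mimecan, showed no detectable change. Ogn (ENSMUSG00000021390.6, chromosome 13 from 49608046 to 49624501, plus strand) was at 11.9, 7.91 and 25.8 CPM on day 0 and at 20.0, 11.2 and 20.0 CPM on day 21. The highest of the 6 mice was a day-0 mouse, and the mean levels were 15.2 ± 9.37 and 17.1 ± 5.06 CPM (SD, n = 3 each). The log2 fold change was 0.17 with a 95% interval from -0.67 to 1.02 (edgeR adjusted p = 0.74, exact permutation p = 0.7). It was 0.77 without day-0 replicate 3 (adjusted p = 0.051) and -0.15 without day-0 replicate 2 (adjusted p = 0.76).

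Fibrillin-1 followed the glycoproteins. Fbn1 (ENSMUSG00000027204.13, chromosome 2 from 125300594 to 125507993, minus strand) has 65 exons in its longest coding transcript, the most of the 10. It was at 10.9, 6.02 and 14.7 CPM on day 0 and at 78.4, 46.8 and 77.7 CPM on day 21, without overlap. Its log2 fold change was 2.69 (standard error 0.30, 95% interval 2.03 to 3.36, edgeR adjusted p = 5.5e-05), the next largest estimate after that of Fn1, with an interval that overlaps those of Fn1, Tnc and Postn.

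**Figure D2:**
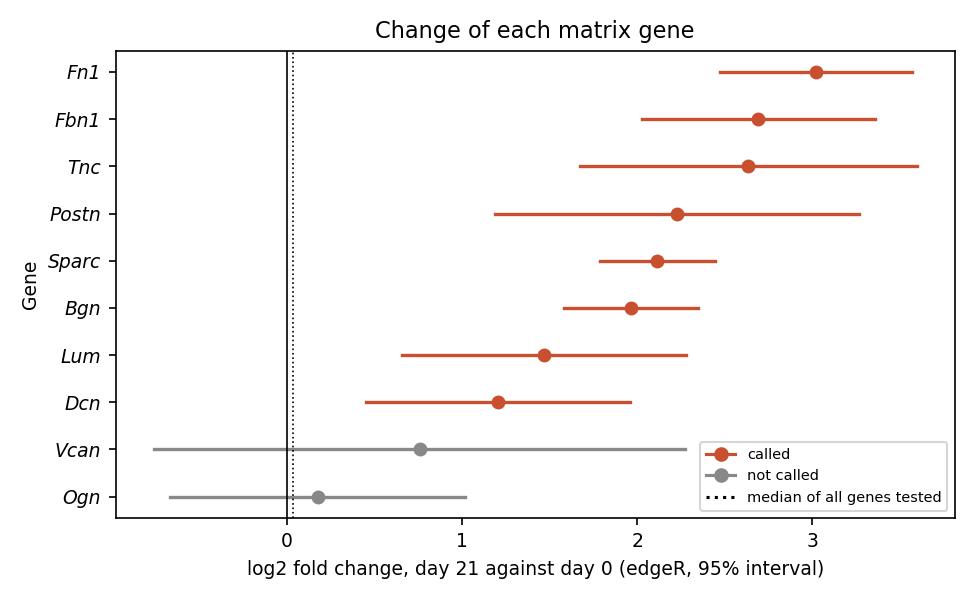
The log2 fold change of each matrix gene, day 21 against day 0, with its 95% interval from edgeR, ordered by size; red genes were called and grey genes were not. Estimates run from 0.17 for Ogn to 3.02 for Fn1, and the intervals of Ogn and Vcan include 0.

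Some of the reads could come from other genes. Annotated exons on the opposite strand overlap 20.1% of the exon bases of Fbn1 (Gm9913), 2.5% of those of Fn1 (Apol7d) and 2.27% of those of Tnc (8030451A03Rik), and how the counting used strand is not given in the sources used here. Gm9913 had 3, 1 and 5 counts at day 0, against 11, 1 and 9 at day 21, so few reads were assigned to it. Apol7d (5, 7 and 18 counts, then 80, 50 and 55) and 8030451A03Rik (5, 8 and 19, then 74, 79 and 107) were called higher with their partners, at log2 fold changes of 2.05 and 2.42. Reads of these partners cannot be told apart without strand. Of the 50-base words in the longest coding transcripts, 20.1% of those of Fbn1, 2.42% of those of Fn1, 1.15% of those of Tnc and 0.38% of those of Bgn also occur in other genes, and none of those of Postn, Sparc, Vcan, Dcn, Lum or Ogn. For Fbn1, Fn1 and Tnc the only other gene was the opposite-strand partner named above, so these words are the same overlaps. The shared words of Bgn occur in 486 genes.

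Divided by the length of the gene's exons, the levels of the 10 genes spanned more than 2 orders of magnitude. Sparc stood at 42.8 ± 2.09 CPM per kilobase on day 0 and 185.5 ± 33.2 on day 21 (SD, n = 3), and Bgn at 31.5 ± 5.31 and 122.9 ± 23.2. Next on day 0 came Dcn (7.68 ± 1.77), Ogn (5.93 ± 3.65), Fn1 (3.21 ± 1.30), Tnc (1.66 ± 1.37), Lum (1.04 ± 0.483), Fbn1 (0.871 ± 0.361), Vcan (0.421 ± 0.499) and Postn (0.338 ± 0.272). Below Bgn, each neighbour in this day-0 order overlapped with the next. On day 21 the order after Bgn was Fn1 (26.0 ± 1.95), Dcn (17.7 ± 8.41), Tnc (10.2 ± 2.38), Ogn (6.65 ± 1.97), Fbn1 (5.58 ± 1.49), Lum (2.84 ± 0.800), Postn (1.56 ± 0.554) and Vcan (0.703 ± 0.311). Here only Dcn and Tnc, Ogn and Fbn1, and Postn and Vcan overlapped as neighbours. Both the levels and the order depend on the length used. By the length of the longest coding transcript, Bgn stood at 79.3 ± 13.4 CPM per kilobase on day 0 and 309.8 ± 58.4 on day 21, before Sparc in the mean (70.4 ± 3.45 and 305.5 ± 54.6). Their ranges overlapped on both days, and in day-0 replicate 1 Sparc was above Bgn (74.4 against 71.9). Dcn then stood at 25.5 ± 5.89 and 58.7 ± 27.9, and its day-21 mean came before that of Fn1 (36.6 ± 2.73). In day-21 replicate 2 Dcn was below Fn1 (26.5 against 34.2).

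The 10 genes together took 0.0407%, 0.0355% and 0.0515% of all counts on day 0, against 0.249%, 0.189% and 0.265% on day 21. Their make-up, as the share of each gene in the summed level per kilobase of exon, needs no scaling between libraries. Bgn held much the same share on both days (32.9% ± 1.80 and 32.4% ± 0.126, SD, n = 3), and Sparc held 45.5% ± 7.02 and 49.0% ± 0.794. The share of Fn1 went from 3.29% ± 0.862 to 6.99% ± 1.09, and that of Fbn1 from 0.891% ± 0.265 to 1.45% ± 0.133. In contrast, the share of Dcn went from 8.0% ± 1.12 to 4.46% ± 1.55, and that of Ogn from 5.95% ± 2.82 to 1.72% ± 0.216. For each of these last 4 genes the 3 mice of one day lay apart from the 3 of the other. With the length of the longest coding transcript, a setting added after seeing the data, the shares of these 4 genes were again apart between the days and in the same direction (Fn1 2.31% and 5.04%, Fbn1 0.451% and 0.754%, Dcn 13.3% and 7.57%, Ogn 2.98% and 0.883%). By this length the mean share of Bgn was the largest on both days (41.5% and 41.9%, against 37.4% and 41.3% for Sparc). On day 21 it was close to that of Sparc, at SDs of 0.74 and 1.16. No test was run on the shares.

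**Figure D3:**
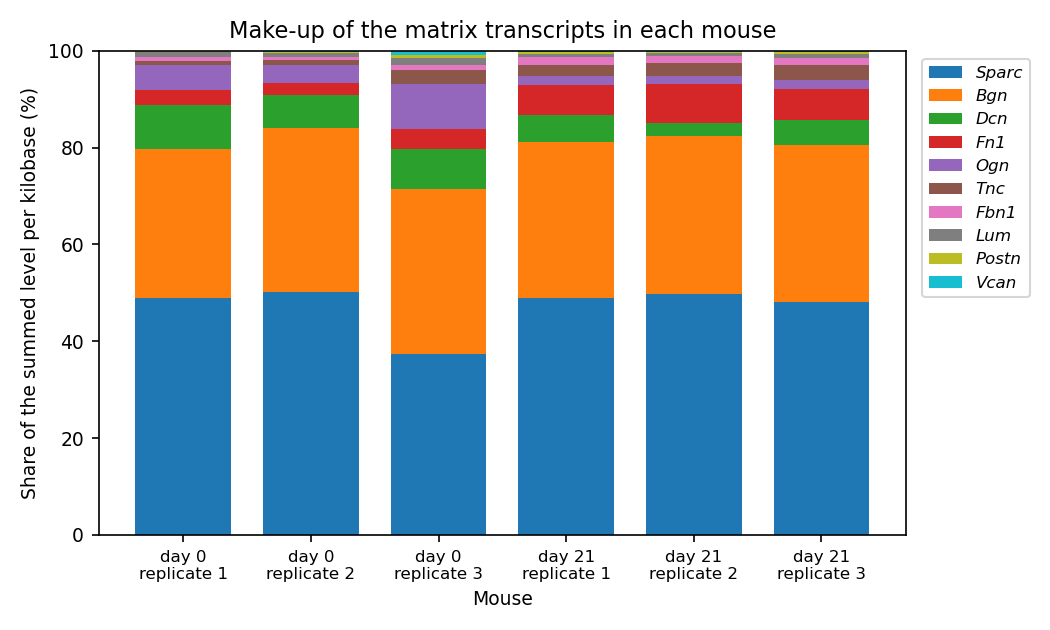
Share of each matrix gene in the summed CPM per kilobase of exon of the 10 genes, in percent, for each of the 6 mice (1 bar per mouse). Sparc and Bgn fill most of every bar, the green Dcn and purple Ogn bands are thinner in the day-21 mice, and the red Fn1 band is thicker.

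Ratios of gene pairs were compared between the days, since a ratio within a mouse is also free of library scaling. The log2 ratio of Dcn to Bgn was -1.84, -2.38 and -2.12 on day 0 and -2.59, -3.65 and -2.73 on day 21. All day-21 mice were lower, and the mean differed by -0.88. The log2 ratio of Lum to Ogn was -2.37, -2.42 and -2.76 on day 0 and -1.42, -1.23 and -1.22 on day 21, a difference of 1.22 with the groups apart. In the 5 other pairs (Dcn to Lum, Fn1 to Tnc, Tnc to Postn, Fn1 to Vcan and Sparc to Fbn1) the groups overlapped. The 2 pairs with groups apart had an exact permutation p of 0.1, the smallest possible, and 0.35 after Benjamini-Hochberg adjustment over the 7 pairs, so no pair passed the threshold. The exact permutation test cannot pass it with 3 mice a group, and no other test was run on the ratios.

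The same mice were the highest and the lowest of their group for many of the 10 genes. Day-21 replicate 2 was the lowest of its group for all 10, as it was for 37.7% of all genes tested, and its median deviation from the group mean was -0.47 on the log2(CPM + 0.5) scale against -0.01 over all genes tested. Day-0 replicate 3 was the highest of its group for 9 of the 10, as it was for 35.1% of all genes tested, with a median deviation of 0.59. Vcan (1.82 above the group mean in day-0 replicate 3) and Dcn (0.99 below it in day-21 replicate 2) showed the largest deviations of these libraries. This order was noticed in these data, and no test was run on it.

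**Figure D4:**
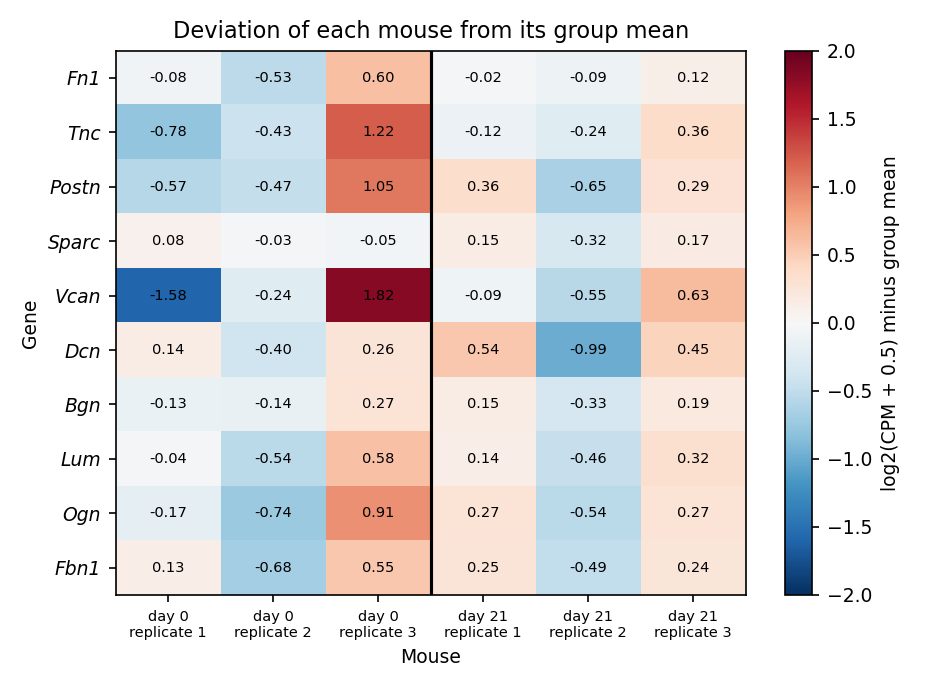
Difference between each mouse and its group mean for each matrix gene, in log2(CPM + 0.5), with red above and blue below the mean. The column of day-0 replicate 3 is above the mean for all genes but Sparc (-0.05), and that of day-21 replicate 2 is below it for all 10.

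Markers of other cells moved with some of these differences. The summed level of 9 fibroblast and pericyte markers was 186.7, 177.4 and 300.4 CPM on day 0 and 1926, 1137 and 2083 CPM on day 21, with 8 of the 9 called higher. Day-21 replicate 3 was highest and replicate 2 lowest in this sum, as for 6 of the 10 matrix genes, and day-0 replicate 3 was again the highest of its group. Most of the day-21 sum came from Col1a1, Col1a2 and Col3a1 (means of 345.7, 463.4 and 662.6 CPM). These collagen genes are matrix genes themselves, so the sum is not a separate measure of cells. Log2 fold changes of the other markers ran from -0.28 (Meox1, not called) to 3.07 (Thy1). Day-0 replicate 3 also held the most counts of 5 perirenal fat markers (17.6 CPM in sum, against 0.401 and 2.23 CPM in the other day-0 mice and 0.418 to 1.63 CPM on day 21), with Adipoq at 0, 14 and 51 counts on day 0. Only 1 of these 5 passed the filter on low counts and it was not called. Day-21 replicate 2 had the lowest sum of endothelial markers (317.2 CPM, against 486.1 and 513.3 CPM) and of smooth muscle and myofibroblast markers (193.5 CPM, against 266.7 and 277.2 CPM), and the highest of macrophage markers (1267 CPM, against 942.1 and 1086 CPM). The part of these cells in the differences was not tested.

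As a check of the tissue, all 7 proximal tubule markers were abundant on day 0 (9740 to 10910 CPM in sum) and all were called lower on day 21 (1923 to 2479 CPM). Of the other lists, 4 of 6 markers of the distal nephron, 3 of 5 of podocytes, 2 of 7 of endothelium, 4 of 4 of erythroid cells and both neutrophil markers that passed the filter were called lower. All 9 macrophage markers, all 5 T and B cell markers tested, 2 of 5 smooth muscle and myofibroblast markers (with 1 lower) and 1 of 5 urothelial markers were called higher, and of 6 housekeeping genes 2 were called higher and 1 lower.

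Relatives of the 10 genes were counted in lists set by gene family. Of 14 other leucine-rich proteoglycans, 9 were tested, none was called higher and 3 were called lower, with a median log2 fold change of -0.19. Those lower were Fmod (fibromodulin, a collagen-binding relative of lumican, -1.22, adjusted p = 0.019), Tsku (tsukushi, -1.0, 0.0023) and Omd (osteomodulin, -1.83, 0.033), all by edgeR. The counts of this list were sensitive to the settings: 2 were higher and 3 lower with upper quartile scaling, 2 higher and 1 lower with library size alone, 1 higher and 2 lower with limma-voom, none was lower under a stricter call (adjusted p under 0.01 and fold over 2), 2 were higher without day-0 replicate 3, and 1 was higher and 1 lower without day-21 replicate 2. Prelp had the highest mean CPM of this list on both days (29.5 ± 10.1 on day 0 and 43.0 ± 7.37 on day 21, SD, n = 3 each), without regard to gene length. In day-0 replicates 1 and 2 Tsku was above Prelp (26.1 against 23.2 and 32.6 against 24.1 CPM). Prelp was not called (0.55, edgeR adjusted p = 0.065). It was picked for its level after the values were seen.

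Leucine-rich genes that lie in clusters with Dcn and Lum, and with Ogn, were also looked up. Kera and Epyc, which lie with Dcn and Lum on chromosome 10, had no count in any mouse, which allows up to 0.309 CPM in the shallowest library, although the stretch between Dcn and Lum is 46985 bases. On chromosome 13, where Ecm2, Aspn, Omd and Ogn form a row, Ecm2 (-0.04, edgeR adjusted p = 0.91) and Aspn (0.63, 0.48) were not called and Omd was lower. Omd had 23, 11 and 49 counts at day 0, against 8, 9 and 19 at day 21. Aspn had 5, 5 and 33 counts and then 32, 25 and 45, so that for both, as for Ogn, day-0 replicate 3 was the highest of its group.

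Of 24 other matricellular glycoproteins, 18 were tested, 12 were called higher and none lower, with a median log2 fold change of 1.5. There were 2 called lower without a filter on low counts, and 1 with DESeq2 or with a replicate block. Spp1 (osteopontin, a phosphoglycoprotein made by injured tubules and macrophages) rose from 959.4 ± 578.9 to 18780 ± 2112 CPM (SD, n = 3 each), the largest change of the list (log2 fold change 4.29, standard error 0.39, edgeR adjusted p = 1.6e-05), and Thbs1 (thrombospondin-1, an activator of latent TGF-β) showed the smallest called one (1.2, standard error 0.20, adjusted p = 0.00088). Relatives of the same family could differ. Against the rise of Tnc, Tnn (tenascin-N) had 33, 61 and 252 counts at day 0, against 113, 34 and 135 at day 21 (-0.90, adjusted p = 0.33). Tnxb was at -0.65 (adjusted p = 0.08) and Tnr had 1 count in all. Beside Sparc, at a log2 fold change of 2.12, Sparcl1 was at 1.23 (adjusted p = 0.00023) and was also called higher. These tenascins and Sparcl1 were named as relatives after their values were seen.

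Of 19 other microfibril and elastic fibre genes, 17 were tested, 12 were called higher and none lower, with a median of 1.36. Fbn2 (fibrillin-2, the form of developing tissues) had 0, 0 and 1 counts at day 0, against 98, 163 and 145 at day 21, a ratio of 273 with a 95% exact binomial interval from 48.8 to 10800, which covers counting error only and rests on that 1 count. Eln (elastin) showed the smallest called change of this list (0.98, standard error 0.24, edgeR adjusted p = 0.0072). Microfibril-associated Mfap2, Mfap4 and Mfap5 were at 3.32, 3.50 and 3.62, with edgeR adjusted p of 0.0001, 7.5e-06 and 0.00039, and Ltbp2, which binds fibrillin-1, had 4, 3 and 2 counts at day 0, against 277, 660 and 460 at day 21. In contrast Fbln5 (-0.17, adjusted p = 0.63), Ltbp4 (-0.25, 0.15) and Ltbp1 (0.23, 0.54) were not called. Except for Fbn2 and Eln, the genes of this list were picked after their values were seen.

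**Figure D5:**
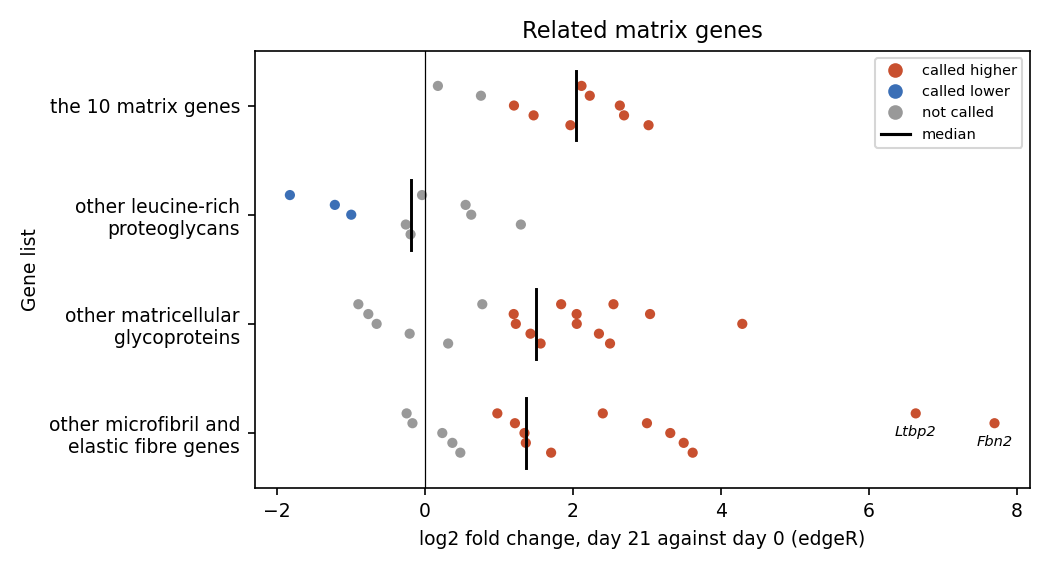
The log2 fold change of each gene tested in 4 lists (red called higher, blue called lower, grey not called, black bar the median; vertical offsets only separate points). Medians were 2.04 for the 10 matrix genes, -0.19 for the other leucine-rich proteoglycans, 1.5 for the other matricellular glycoproteins and 1.36 for the other microfibril genes, and the value of Fbn2, at 1 count on day 0, depends on the prior count of the fit.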

How the data were processed

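Kidney RNA of 3 day-0 and 3 day-21 mice was sequenced as paired-end reads of 150 bases. The authors deposited raw counts per gene and mouse, without normalization. The submitters' processing notes name TopHat and the mm10 assembly, and the counting program and its strand setting are not given in the sources used here. All 55450 identifiers match GENCODE M21 (GRCm38), and 28536 genes had no count. Samples were grouped by their own labels. The matrix genes and all lists were chosen with earlier results of these data known.

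Counts were filtered with filterByExpr (minimum count 10, minimum total 15), scaled by TMM and compared with edgeR 4.0.16's quasi-likelihood test in R 4.3.3, without a block, and p-values were adjusted by the Benjamini-Hochberg method over all 16592 genes tested. Calls needed a fold over 1.5 at an adjusted p under 0.05. Single genes and ratios were also compared by a two-sided exact permutation test over all splits of the mice. The adjustment of the p-values of the ratios and the exact binomial interval used scipy 1.17.1. The common biological coefficient of variation was 16.2%. The fits were tested on simulated counts. No 2 mice of a group were duplicates, with a chi-square per gene of 6.78 to 23.6.

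Beside the 10 matrix genes, the called gene of largest and of smallest change was named in each direction of each list, with a mean of at least 20 counts, and the neighbours of the leucine-rich genes. Apart from genes that share exon bases with the 10, other genes were named with their values known. This is not said beside each of them, as for Has2, Acan, Ncan, Bcan, Hapln1, Hspg2, Nid2, Meox1, Thy1 and Adipoq. Alternatives were RLE, upper quartile or no scaling, no filter or a mean of at least 50 counts, DESeq2 1.42.0, limma-voom (limma 3.58.1), a replicate block, each mouse left out, the library without mitochondrially encoded or the 20 highest genes, stricter calls and other gene lengths. The count table held day-0 and day-21 mice only, so day-7 and day-14 mice could not be compared here.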

Additional observations from a re-analysis of the deposited data

How the results depend on the processing

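Each of the 8 matrix genes called kept its direction in all 16 alternative fits. The number of matrix genes called ran from 7 to 9 with each mouse left out, their median log2 fold change from 1.90 to 2.19, and the number of all genes called from 5128 to 5920. With library size alone, the median of all genes moved from 0.03 to 0.42 and that of the 10 genes to 2.43, so that relative to all genes the latter changed little. A stricter call (adjusted p under 0.01 and fold over 2) lowered the genes called to 3172, and 7 of the 10 were among them. Without the 20 genes of highest summed counts over all mice, the mean day-0 share of the 10 genes was 0.0513%. On day 21 their shares were then 0.286%, 0.215% and 0.299% (replicates 1 to 3).

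With the longest transcript as length, 6 of the 10 genes kept their place in the day-0 order. With the longest coding transcript, an alternative added after seeing the data, 5 did on day 0 and 4 on day 21. With each mouse left out, the log2 fold change of Ogn ran from -0.15 (without day-0 replicate 2) to 0.77, and the change of the log2 ratio of Fn1 to Tnc from -0.14 (without day-0 replicate 3) to 0.56. The cause of these changes was not tested.

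The labels state no pairing of mice with the same replicate number. The correlations of their deviations over all genes tested were -0.02, 0.17 and 0.09, which cannot show that such mice share nothing. With a replicate block, 5758 genes and 8 of the 10 were called, with a median of 2.03. The standard error of each of the 10 was smaller with the block, from Fbn1 (0.15, against 0.30 without it) to Sparc (0.146, against 0.147). Replicate 2 was the lowest of its group for 6 of the 10 genes on day 0 and for all 10 on day 21, against 33.2% and 37.7% of all genes tested. Whether the numbers mark a pairing was not tested. Vcan (1.15, edgeR adjusted p = 0.058) and Ogn were again not called. Not every mouse correlated best with its own number.

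At these depths Lum and Postn rested on 15 to 55 counts in each day-0 mouse and Vcan on 9 counts in 1 of them, and a Vcan or Ogn change smaller than their intervals was not detectable.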

Other observations

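Genes that act on the matrix proteins were also counted. Among 18 receptors, 10 were called higher and none lower, with a median log2 fold change of 0.66. Cd44, the hyaluronan receptor that also binds osteopontin and versican, rose from 3.10 ± 0.676 to 66.4 ± 16.2 CPM (SD, n = 3 each, log2 fold change 4.41, edgeR adjusted p = 1.1e-06). Itgb1, the beta chain of the main fibronectin and collagen receptors, showed the smallest called change (0.65, edgeR adjusted p = 0.0029). Tlr2, a receptor of biglycan and versican, was at 3.18 (adjusted p = 7.4e-07), and Tlr4, another, was not called (0.66, 0.11). The Toll-like receptors were picked after their values were seen.

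Of 6 proteases that cleave versican, 5 were tested, with 3 called higher, 1 lower and a median of 1.35. Adamts4 (2.15, edgeR adjusted p = 0.0025) and Adamts5 (1.35, 0.0025) were the largest and smallest of those higher, and Adamts15 was lower (-1.12, 0.00036). Vcan itself, as given above, did not pass the test.

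Enzymes of the chondroitin and dermatan sulfate chains that versican, decorin and biglycan carry moved in both directions, with 6 of 22 called higher, 5 lower and a median of 0.19, where 19.6% of all genes tested were called higher and 15.5% lower. No excess over all genes is read from these counts. Chsy3, a chain polymerase, was the largest rise (2.22, edgeR adjusted p = 0.0035) and Chpf, its partner, the smallest (0.87, 0.00039). Chst3, the 6-O-sulfotransferase, showed the largest fall (-2.12, 0.0004) and Fam20b, a kinase that acts on the linker, the smallest (-0.62, 0.001). Picked after their values were seen, the epimerases Dse (1.57, 0.00064) and Dsel (1.53, 0.0005) and the dermatan 4-O-sulfotransferase Chst14 (2.05, 0.00026) were all called higher. Xylt1, which starts the chain (-2.07, 1.2e-05), Chst7 (-1.55, 0.0012) and Chst11 (-1.19, 0.00057), sulfotransferases of chondroitin, were all called lower. Chst12, another sulfotransferase of the list, went the other way and was called higher (1.78, 0.0005), so the sulfotransferases did not move together. Xylt2, the other xylosyltransferase of the list beside Xylt1, was not called (0.12, 0.49). In the keratan sulfate list 2 of 5 tested were higher, B4galt4 (1.14, 0.00047) and B3gnt7 (0.72, 0.0096), with a median of 0.32.

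In the list of hyalectans, link proteins and hyaluronan, 6 of 15 were tested and 3 called higher, with a median of 1.78 (0.77 with Has2 at its lower bound). Besides Cd44 they were Hmmr (3.46, edgeR adjusted p = 5.9e-05) and Has2, a hyaluronan synthase with 0 counts in each day-0 mouse and 11, 14 and 12 on day 21, at least 2.74-fold higher against a floor of 3 counts per library. The other hyalectans Acan, Ncan and Bcan had 0 to 2 counts in each mouse, and Hapln1, the link protein gene beside Vcan, had 3, 6 and 7 counts at day 0, against 0, 4 and 0 at day 21. Among 6 basement membrane genes, 4 were higher (median 1.33), from Nid1 (1.14, 0.0078) to Col15a1 (2.66, 8.4e-06), and Hspg2 (0.31, 0.11) and Nid2 (0.27, 0.27), the other two, were not called.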
